A study of Mus musculus with 2 samples.

Results

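Mir135a-1, Mir135a-2, Mir135b and Mir1251 are 4 of the 1973 microRNA loci counted in 2 small RNA libraries of the mouse hindbrain at embryonic day 14.5. They were chosen by name: the first 3 are the mouse loci of the miR-135 family, and Mir1251 lies with Mir135a-2 at Rmst, a long non-coding RNA gene of the developing nervous system. Each was matched by its Ensembl identifier, and each had at least 10 counts on its own strand in each library, as 401 of the 1973 loci did. The series has 1 group, hindbrain tissue of strain B6NCrl with no mutation or treatment named in the labels, so no conditions could be compared. Replicate 2 was collected on 30 July 2014 and replicate 1 on 24 July 2014. One label calls each sample a single hindbrain and another pools males and females, and both carry the same donor, while a further label numbers them as biological replicates 2 and 1. These labels do not settle how many animals each library holds. Collection dates 6 days apart at the same embryonic age place the tissue of the libraries in separate embryos. So n = 2 and every SD below measure the spread between these libraries, in which animal, collection day and technical handling cannot be told apart.

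MicroRNAs are cut from a hairpin that yields a 5p and a 3p arm, and an arm finds its target transcripts mainly through its seed, bases 2 to 8. In mice, miR-135 is known for acting in serotonergic neurons of the raphe, a hindbrain nucleus, where it represses the serotonin transporter gene Slc6a4 and the receptor gene Htr1a, and miR-135a is known for a regulatory circuit with Lmx1b and Wnt signalling in midbrain progenitors. In human colorectal cells miR-135 is known to repress the Wnt inhibitor APC, and in human neural stem cells RMST is known to act with SOX2 in neurogenesis. The deposited tables hold microRNA loci, so none of these target or host transcripts was measured here.

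The mature sequences are shown because what the 2 Mir135a loci share decides which reads could be counted at each. They were taken from RefSeq on GRCm38.p6, written 5′ to 3′ with the seed in capitals.
miR-135a-5p, from Mir135a-1 and Mir135a-2: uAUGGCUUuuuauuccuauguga
miR-135a-1-3p, from Mir135a-1: uAUAGGGAuuggagccguggcg
miR-135a-2-3p, from Mir135a-2: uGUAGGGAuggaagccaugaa
miR-135b-3p, from Mir135b: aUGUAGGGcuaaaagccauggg
miR-1251-5p, from Mir1251: aCUCUAGCugccaaaggcgcu
miR-1251-3p, from Mir1251: cGCUUUGCucagccaguguag

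The 23 bases of miR-135a-5p stood unchanged in 2 RefSeq mouse hairpins, those of Mir135a-1 and Mir135a-2. The hairpin of Mir135b, the source of miR-135b-5p, held the same seed letters, AUGGCUU, and its closest stretch differed from miR-135a-5p at 1 base. The hairpin of Mir1251 did not hold these seed letters, and its closest stretch differed at 12 bases. The 3p arms of the 3 Mir135 hairpins differ more. No pair of them has the same seed, and the longest run that any pair of these arms shared was 8 bases, between miR-135a-2-3p and miR-135b-3p.

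Mir135a-1 and Mir135a-2 shared a longest run of 24 bases, which covers the whole of miR-135a-5p, while the longest run shared with Mir135b was 14 bases for Mir135a-1 and 13 for Mir135a-2. Among stretches of 22 bases, 3 of 69 in Mir135a-1 and 3 of 79 in Mir135a-2 also occurred in another RefSeq mouse hairpin, read on either strand. For Mir135b it was 0 of 76 and for Mir1251 0 of 63. Reads that mapped to several positions were left unassigned by the authors' tables, 34.3% of the reads of replicate 2 and 33.9% of those of replicate 1. The counts of Mir135a-1 and Mir135a-2 are therefore uncertain and leave out any read of miR-135a-5p that fits both hairpins. How many of the unassigned reads were miR-135a-5p was not measured here, and the tables give 1 count a hairpin, so the arms cannot be told apart. Not measured either was the sharing of reads across the 1 base by which Mir135b differs.

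Mir135b, on chromosome 1 at 132198088 to 132198184 of GRCm38 on the plus strand, had the most assigned reads of the 4 loci. It lies in the first intron of Lemd1, a protein-coding gene on the same strand, 6633 bases past the start of transcript Lemd1-201. Mir135b had 66843 counts in replicate 2, against 50179 counts in replicate 1. Per 1000000 counts on microRNA loci (CPM), that was 10026 CPM in replicate 2, against 8612 CPM in replicate 1, or 9319 ± 999.6 CPM (SD, n = 2). A read covers about 1 mature microRNA, so CPM was not divided by length, and the unequal capture of sequences in small RNA libraries was not measured.

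Reads that mapped to several positions were left out for every locus, so ranks are of assigned counts and not of microRNA abundance. By mean level, Mir135b ranked 19 of the 401 detected loci. The 3 loci nearest to it were Mir30a with 9556 ± 510.2 CPM, Mir125a with 8654 ± 401.6 CPM and Mir23b with 8576 ± 796.1 CPM (SD, n = 2). Mir30a was lower than Mir135b in replicate 2, with 9195 CPM, and higher in replicate 1, with 9916 CPM, so the order of these neighbours depends on the library. Among 20 loci listed for comparison as neural and single, 2 had a higher mean level. They were Mir149 with 14266 ± 1557 CPM and Mir137, a microRNA of neuronal differentiation, with 10171 ± 670.6 CPM (SD, n = 2). The list also holds Mir33, which lies in a metabolic host gene. Its Mir873a has all its stretches of 22 bases in another RefSeq hairpin, read on either strand. A hairpin opposite Mir873a at the same position would also count, so this does not show a second copy.

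Mir135a-1, on chromosome 9 at 106154124 to 106154213 on the plus strand, had 1500 counts in replicate 2, against 1393 counts in replicate 1. These were 225 CPM in replicate 2, against 239 CPM in replicate 1, with a mean of 232 ± 9.96 CPM (SD, n = 2), rank 166 of 401. Picked as nearest in level were Mir106a with 238 ± 71.0 CPM, Mir874 with 235 ± 30.6 CPM and Mir700 with 230.4 ± 30.2 CPM (SD, n = 2). The locus lies in intron 4 of the non-coding gene D030055H07Rik on the same strand. On the opposite strand it overlaps the last exon of Glyctk, the glycerate kinase gene, in the 3′ UTR, 1030 bases past the coding sequence. Mir135a-1 had 0 counts on the strand of Glyctk in each library, for which the limit of 3 counts is 0.450 CPM in replicate 2, against 0.515 CPM in replicate 1. The other 3 loci also had 0 counts on the opposite strand in each library.

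The other microRNA locus of the tables within 100000 bases of Mir135a-1 was Mirlet7g, 24627 bases away on the same strand. Mirlet7g, of the let-7 family, had 50820 CPM in replicate 2, against 44048 CPM in replicate 1.

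Mir135a-2, on chromosome 10 at 92072086 to 92072185 on the minus strand, had 1464 counts in replicate 2, against 1199 counts in replicate 1. These were 220 CPM in replicate 2, against 206 CPM in replicate 1, with a mean of 213 ± 9.76 CPM (SD, n = 2), rank 171 of 401. Nearest in level were Mir181a-2 with 211 ± 17.0 CPM, Mir329 with 215 ± 6.01 CPM and Mir483 with 204 ± 26.5 CPM (SD, n = 2). They were picked for this closeness, so it is not a result. Mir135a-1 had 1.02 times the counts of Mir135a-2 in replicate 2, against 1.16 times in replicate 1. Mir135a-1 held 50.6% of the counts of the pair in replicate 2 (48.8 to 52.4, 95% Clopper-Pearson), against 53.7% in replicate 1 (51.8 to 55.7). The intervals overlap, which is not a test of whether the shares differ between the libraries. Equal counts lie inside the interval of replicate 2 and outside that of replicate 1. Summed, the 2 loci had 444.6 CPM in replicate 2, against 444.9 CPM in replicate 1.

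**Figure D1:**
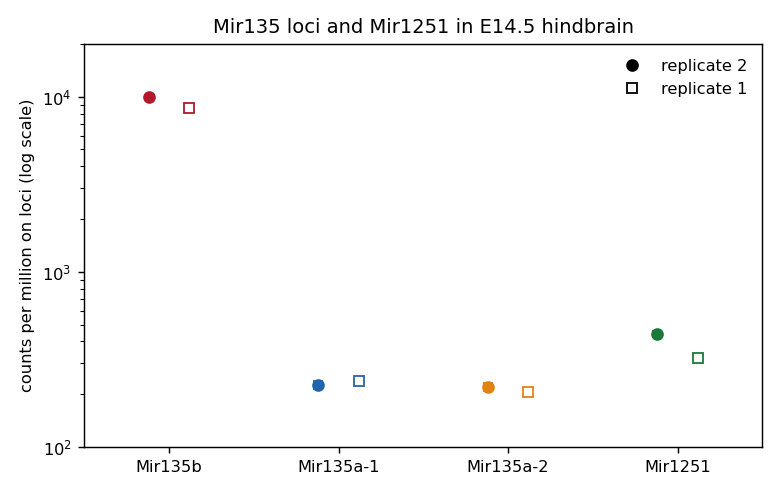
Level of each locus in CPM on a log axis, with filled circles for replicate 2 and open squares for replicate 1 and exact Poisson 95% intervals that are mostly smaller than the symbols. Mir135b sits near 10026 and 8612 CPM, and the other 3 loci lie between 206 and 443 CPM.

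Mir1251, on chromosome 10 at 92137140 to 92137223 on the minus strand, had 2956 counts in replicate 2, against 1873 counts in replicate 1. These were 443 CPM in replicate 2, against 321 CPM in replicate 1, with a mean of 382 ± 86.2 CPM (SD, n = 2). The mean ranked 136 of 401, with rank 129 in replicate 2 and rank 150 in replicate 1, the widest move in rank of the 4 loci. Nearest in level were Mir350 with 382 ± 7.75 CPM, Mir383 with 371 ± 13.3 CPM and Mir543 with 387 ± 41.7 CPM (SD, n = 2), all with a smaller SD than Mir1251.

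Mir1251 and Mir135a-2 lie in the same direction in Rmst, which runs from 92071037 to 92165170 on the minus strand of chromosome 10, with 64954 bases between the hairpins. Mir1251 starts 27947 bases from the 5′ end of Rmst and Mir135a-2 starts 92985 bases from it. Of the 14 Rmst transcripts in GENCODE M21, 6 span Mir1251 and 2 span Mir135a-2, in each case as an intron, and 0 span both. Mir1251 lies in intron 3 of the 12 introns of Rmst-209, while Mir135a-2 lies in intron 4 of the 4 introns of Rmst-205, whose start lies 33204 bases beyond Mir1251. Whether a longer transcript joins them was not tested.

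**Figure D2:**
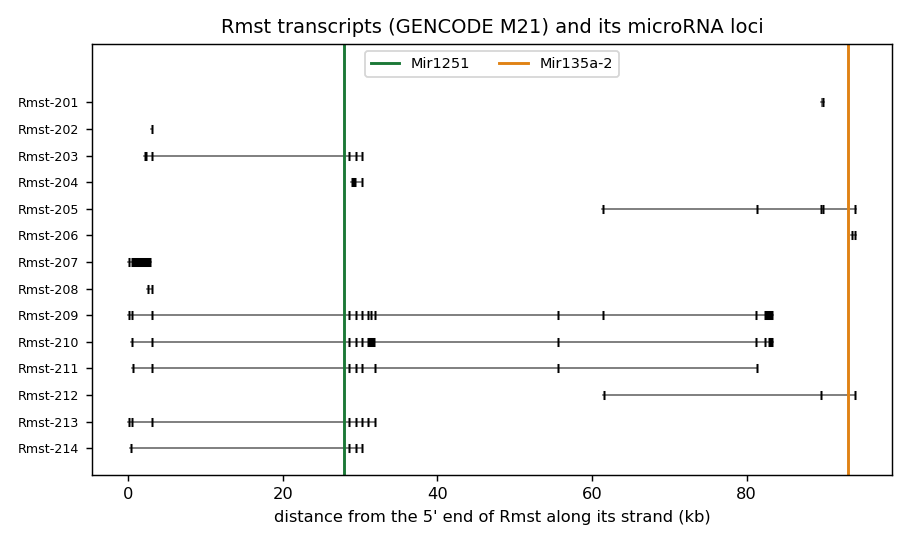
Rmst transcripts of GENCODE M21 drawn by distance from the 5′ end of the gene along its strand in kb, with exons as blocks (those under 250 bases drawn 250 wide) and introns as thin lines. The line of Mir1251 crosses 6 transcripts and that of Mir135a-2 crosses 2, with 0 transcripts crossed by both.

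Of the counts at the 2 Rmst loci, Mir1251 held 66.9% in replicate 2 (65.5 to 68.3, 95% Clopper-Pearson), against 61.0% in replicate 1 (59.2 to 62.7). These shares do not depend on how libraries are scaled, and their counting intervals do not overlap. Mir1251 thus had 2.02 times the counts of Mir135a-2 in replicate 2 and 1.56 times in replicate 1. With 1 library on each side, this difference has no replicate check, and the counts of Mir135a-2 leave out reads shared with Mir135a-1.

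Of the counts at the 3 Mir135 loci, Mir135b held 95.8% in replicate 2 (95.6 to 95.9, 95% Clopper-Pearson), against 95.1% in replicate 1 (94.9 to 95.3). Mir135b had 44.6 times the counts of Mir135a-1 in replicate 2 and 36.0 times in replicate 1. Against Mir135a-2 it had 45.7 times the counts in replicate 2 and 41.9 times in replicate 1. These ratios compare reads assigned to 1 locus and leave out any unassigned reads of miR-135a-5p. Together the 3 loci held 0.976% ± 0.0999 of the microRNA counts, and with Mir1251 the share was 1.01% ± 0.109 (SD, n = 2).

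The copies of other brain microRNAs with a shared mature sequence were set beside Mir135a-1 and Mir135a-2. The list named 24 loci, of which 23 had a row, and Mir9-1 was not analysed here. Its 21 detected loci had a median of 211 CPM, close to the means of Mir135a-1 and Mir135a-2, against 130 CPM for all 401 detected loci. The 20 loci listed as neural and single, Mir873a and Mir33 among them, had a median of 982 CPM, all 20 detected. The highest of the multi-copy loci were Mir181a-1 with 3843 ± 106 CPM, Mir219a-2 of the oligodendrocyte lineage with 2618 ± 252 CPM, Mir128-1 with 1781 ± 169 CPM and Mir181b-2 with 1377 ± 247 CPM (SD, n = 2), and 10 of the 23 lay above Mir135a-1.

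Among the 12 families so compared, Mir135a had the most even copies. The ratio of the mean levels of its higher to its lower copy was 1.09, against 1.57 for Mir7, 1.68 for Mir128 and 1.93 for Mir138, the next 3 of the other 11 families, and up to 339 for Mir9. Evenness is not particular to Mir135a: Mir125b, a family outside the list that was picked with its values in view, had copies at 2088 ± 19.9 and 2085 ± 78.6 CPM (SD, n = 2), a ratio of 1.001. The ratio is a description of the assigned counts, and reads that fit several copies were left out in every family.

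**Figure D3:**
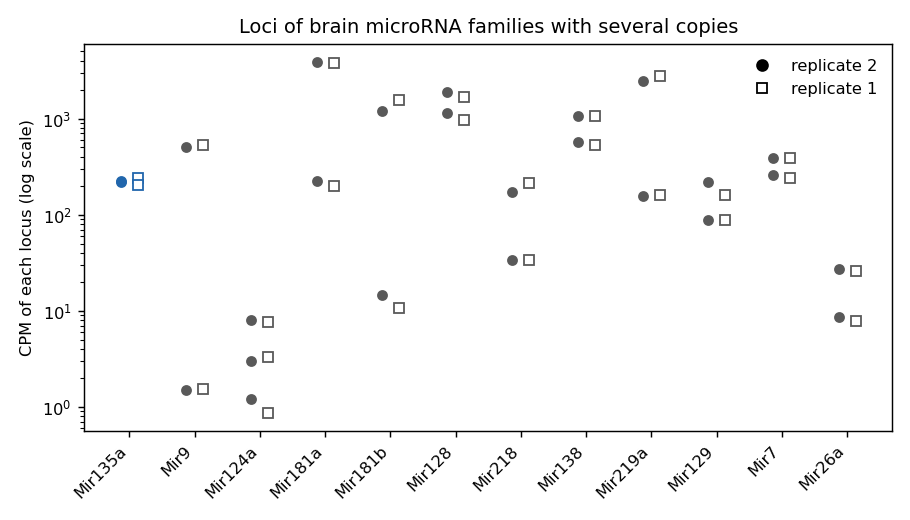
Level of each locus of 12 brain microRNA families with several copies, in CPM on a log axis, with filled circles for replicate 2 and open squares for replicate 1. The symbols of the Mir135a copies, in blue at the left, nearly coincide at 206 to 239 CPM, while those of Mir9 lie at about 516 and 1.52 CPM. The lower copies of Mir9 and Mir124a are drawn although they were not detected.

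Scaled for library size, Mir1251 and Mir135b were higher in replicate 2 than counting error allows. Mir135a-1 was slightly lower after scaling, a call that depended on the scaling and the filter. Ratios used library sizes scaled by TMM, a trimmed mean of ratios over loci, and each of the 498 loci that reached 10 counts in both libraries together had an exact two-sided binomial test with Benjamini-Hochberg adjustment over all 498. The test covers counting error and compares these 2 libraries, not conditions. Of the 4 loci, 2 were higher in replicate 2 and 1 was lower, where 17.5% of the loci tested were called higher and 15.1% lower, 32.5% in all. Over the 498 loci that was 87 higher and 75 lower, or 114 higher and 59 lower with library totals in place of TMM. The median log2 ratio of the 4 loci was 0.11, beside 0.01 over the 498. Of the 23 multi-copy loci, 3 rose, 4 fell and 16 missed the threshold, with a median log2 ratio of 0.01. Of the 20 loci listed as neural and single, 14 rose, 2 fell and 4 missed it, with a median of 0.13.

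Mir1251 was 1.34-fold higher in replicate 2, with a log2 ratio of 0.42 (exact 95% interval 0.34 to 0.51, adjusted p = 2.19e-22, exact binomial test). Among the 282 loci that reached 100 counts in each of the libraries its log2 ratio was the fifth from the top, and their log2 ratios had an SD of 0.22. Mir135b was 1.13-fold higher in replicate 2, with a log2 ratio of 0.18 (0.16 to 0.19, adjusted p = 1.22e-94, exact binomial test), rank 51 of the 282. Its smaller p comes with a smaller ratio and more counts.

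Mir135a-1 had a log2 ratio of -0.13 (exact 95% interval -0.24 to -0.02, adjusted p = 0.0476, exact binomial test), and this call was lost with library totals in place of TMM, at an adjusted p of 0.228, and with no filter on low counts, at 0.0971. Mir135a-2 had a log2 ratio of 0.05 (-0.06 to 0.16, adjusted p = 0.579, exact binomial test) and did not pass. The interval of Mir1251 lay above that of Mir135a-2, its partner in Rmst.

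When the spread between libraries was allowed for, by an exact test with the common dispersion that edgeR estimated from them (a coefficient of variation of 10.8%), 0 of the 4 loci were called, where 1.41% of the 498 loci were. By that test Mir1251 had an adjusted p of 0.995 and an unadjusted p of 0.0619, and the other 3 had unadjusted p of 0.424 or more, so 0 of the 4 passed an unadjusted p of 0.05, where 27 (5.42%) of the 498 loci did. The dispersion comes from the same differences between these 2 libraries that the test then judges, which enlarges it, so the lack of calls does not show that the loci are alike in both. The coefficient of variation of the CPM was 22.5% for Mir1251, 10.7% for Mir135b, 4.59% for Mir135a-2 and 4.29% for Mir135a-1.

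**Figure D4:**
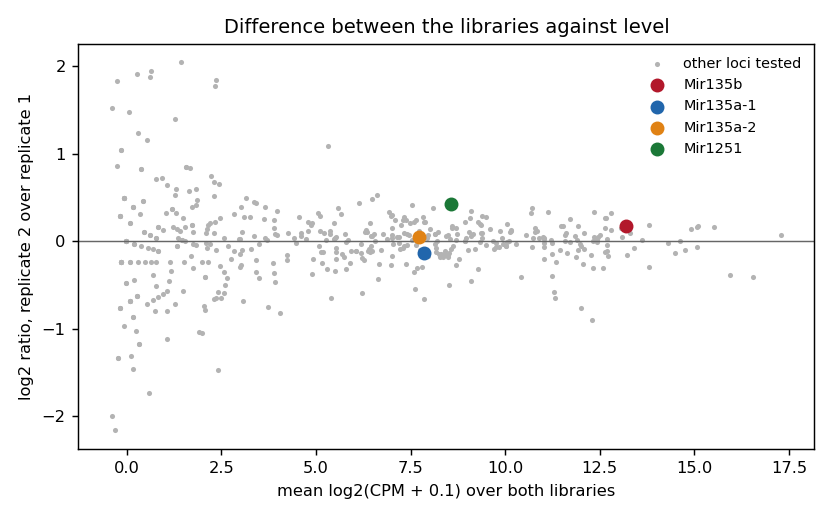
Log2 ratio of replicate 2 over replicate 1 after TMM scaling, against the mean log2(CPM + 0.1), for the 498 loci tested, with the 4 loci in colour. Mir1251 lies at 0.42, and Mir135b at 0.18, Mir135a-2 at 0.05 and Mir135a-1 at -0.13 lie nearer to 0.

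The tissue label was checked against marker loci. Of 5 neural markers 5 were detected, led by Mir149 and Mir137, with a summed level of 30970 CPM in replicate 2, against 27015 CPM in replicate 1, and by the binomial test 4 were higher in replicate 2 and 1 was lower. The Hox cluster loci Mir10a and Mir10b, which mark hindbrain and spinal cord, summed to 140148 CPM in replicate 2, against 179036 CPM in replicate 1, and both were lower in replicate 2. The choroid plexus markers Mir204 and Mir449a summed to 5882 CPM in replicate 2, against 9534 CPM in replicate 1, both lower in replicate 2. The red cell markers Mir451a and Mir144 summed to 373 CPM in replicate 2, against 261 CPM in replicate 1, both higher in replicate 2. Endothelial Mir126a had 36687 CPM in replicate 2, against 31783 CPM in replicate 1. Smooth muscle Mir143 and Mir145a summed to 6930 CPM in replicate 2, against 6596 CPM in replicate 1, and oligodendrocyte lineage Mir219a-2 and Mir338 to 2885 CPM in replicate 2, against 3185 CPM in replicate 1. Myeloid Mir223 had 208 CPM in replicate 2, against 194 CPM in replicate 1, and liver Mir122 had 15.7 CPM in replicate 2, against 13.7 CPM in replicate 1. The striated muscle markers Mir1a-1 and Mir133a-1, which have near-identical copies, had 0 counts in each library, and Mir206 had 16.2 CPM in replicate 2, against 14.9 CPM in replicate 1.

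The marker sums moved between the same libraries as Mir1251 and Mir135b, and their part in those differences was not tested. In such bulk tissue, more cells of a type and more RNA per cell cannot be told apart. Collection day and replicate cannot be told apart either.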

How the data were processed

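Small RNA under 30 nucleotides was sequenced in 2 libraries of 1 group. Per locus, the deposited tables give raw read counts for both strands and for each strand, on mm10 with annotation M4 per the file lists deposited with them. The sources used here do not name the aligner or the counting program. The strand column holding 97.8% of counts in replicate 2 and 98.0% in replicate 1 was used, with totals of 6667238 in replicate 2 and 5826676 in replicate 1. Unassigned reads, in 4 rows of each table, entered no total. Symbols and host genes came from GENCODE M21 (GRCm38), matched on the stable identifier for 1894 of 1973 loci. Sequences came from RefSeq, and the search for copies covered RefSeq hairpins in place of the genome. CPM is the count per 1000000 counts on loci. TMM factors were 1.01 for replicate 2 and 0.985 for replicate 1, and 0.5 was added to counts in ratios. With 2 libraries in 1 group, a quasi-likelihood test could not be fitted. Intervals and floors (3 counts) cover counting error only, since reads and not molecules were counted.

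The members, lists and tests were chosen with earlier results of these data known. Besides the 4 members, the text names the 3 detected loci nearest to each in mean log2 CPM and up to 4 leading loci of each list. Scripts were tested on simulated counts that held counting error only. This checked the binomial test and not the test with the common dispersion. Software was edgeR 4.0.16 and DESeq2 1.42.0 in R 4.3.3, and scipy 1.17.1 in Python 3.11.15.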

Additional observations from a re-analysis of the deposited data

How the results depend on the processing

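Log2 ratios of the 4 loci kept their direction under library totals, DESeq2 size factors, a pseudocount of 1, counts of both strands, no filter, a summed count of at least 100 and the common dispersion. Mir135a-1 lost its call with library totals (-0.088), no filter (-0.12) and the common dispersion (-0.13). Mir135b (0.18) and Mir1251 (0.42) lost theirs with the common dispersion, under which 7 in place of 162 loci were called. The cause of the losses for Mir135a-1 was not tested. Per 1000000 of all reads, the levels were 111 for Mir135a-1, 102 for Mir135a-2, 4455 for Mir135b and 182 for Mir1251. With at least 1 count in each library, 641 loci were detected. Levels from 1 library alone ran from 225 to 239 CPM for Mir135a-1, 206 to 220 for Mir135a-2, 8612 to 10026 for Mir135b and 321 to 443 for Mir1251, and the share of Mir135b from 95.1% to 95.8%. No ratio is left without either replicate. No paired analysis was possible because there is 1 group. Counts of 1199 to 66843 set the counting intervals, while the spread between libraries rests on 2 of them.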
